A study of Mus musculus with 10 samples.

Results

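The 9 genes described here were chosen by name and encode 2 neurotrophins (Ntf3 and Bdnf), TrkB (Ntrk2), TrkC (Ntrk3), p75 (Ngfr), sortilin (Sort1) and its relatives SorCS1, SorCS2 and SorCS3 (Sorcs1, Sorcs2 and Sorcs3). All 9 were among the 14300 genes of the count table, and none lost its place to the filter on low counts. Neurotrophins are secreted growth factors that regulate the survival, axon growth and synapses of neurons. Each is made as a precursor that is cleaved to the mature factor. Mature brain-derived neurotrophic factor acts mainly through TrkB and neurotrophin 3 mainly through TrkC, both receptor tyrosine kinases, whereas the p75 receptor binds all neurotrophins and, together with a sortilin-family receptor, their precursors. Sortilins are Vps10p-domain proteins that carry cargo between the Golgi, endosomes and the cell surface.

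The libraries came from Grem1creERT; Rosa26LSLTdTomato embryos on the c57bl/6j background. In these embryos tamoxifen activates a Cre recombinase that is driven by Grem1 regulatory sequences, and cells with active Cre, together with their progeny, turn on TdTomato. Tamoxifen was given to the dams at E13.5 and cells were taken 24 h later, at E14.5, from the dorsal telencephalon (the sample labels say only brain) with the meninges removed. Live TdTomato+ cells (Grem1-labelled) and TdTomato- cells of the same genotype and treatment were separated by flow sorting, which gave 5 pairs of libraries that carry the mouse numbers 2 to 6. The study counts the numbered units as mice, and the sources used here do not say whether embryos were pooled within a number, nor which came from separate litters, so p-values cover the spread between these numbered samples only. The TdTomato- gate holds every cell without the reporter, so it is a mixture and not a second cell type.

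Library totals were 23429034 to 27286180 counts, and a count of 3 corresponded to 0.104 to 0.136 CPM (counts scaled to a common library size, with TMM factors). The lowest member value was 13 counts. Markers of excitatory neurons were enriched by the sort. All 8 markers of postmitotic projection neurons were higher in TdTomato+ libraries, where they summed to 9645 to 10930 CPM against 3324 to 4233 CPM, and all 8 radial glia markers were lower (128 to 176 against 1572 to 1848 CPM), as were all 5 markers of dividing cells (21.2 to 51.0 against 1255 to 1589 CPM), all 4 of intermediate progenitors (40.6 to 64.5 against 639 to 823 CPM) and all 7 of GABAergic neurons (44.7 to 68.1 against 1331 to 1707 CPM). Summed markers of endothelium (2 in the table), mural cells (4), meninges (2), microglia (4) and erythroid cells (3) were at most 1.91, 3.04, 1.09, 1.31 and 16.5 CPM in TdTomato+ libraries and reached 3.62, 18.8, 5.29, 51.3 and 182 CPM in TdTomato- libraries. Of these, P2ry12 and C1qa, which mark microglia, had 3 counts or fewer in every TdTomato+ library, and no marker was at 0 in all of them. In such bulk libraries fewer cells of a type and less RNA per cell cannot be told apart, and the part of cell composition in the results below was not tested.

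Neurotrophin receptor genes and Sort1 were higher in TdTomato+ cells and the SorCS genes were lower. With the mouse as a block, 6 of the 9 genes rose (Ntf3, Bdnf, Ntrk2, Ntrk3, Ngfr and Sort1) and 3 fell (Sorcs1, Sorcs2 and Sorcs3) at an adjusted p of 0.05 or less (edgeR quasi-likelihood test). At that threshold 77.3% of all 14300 genes were called, 37.9% as higher and 39.4% as lower, so being called is the common outcome in this comparison and says little about these genes. Ngfr and Ntf3 had a log2 fold change of at least 2, as did 3.2% of all genes among the higher calls, and Sorcs1 had one of −2 or less, as did 9.74% of all genes among the lower calls. The values of the 2 populations did not overlap for 7 members, against 61.6% of all genes, the exceptions being Bdnf and Sorcs2.

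**Figure D1:**
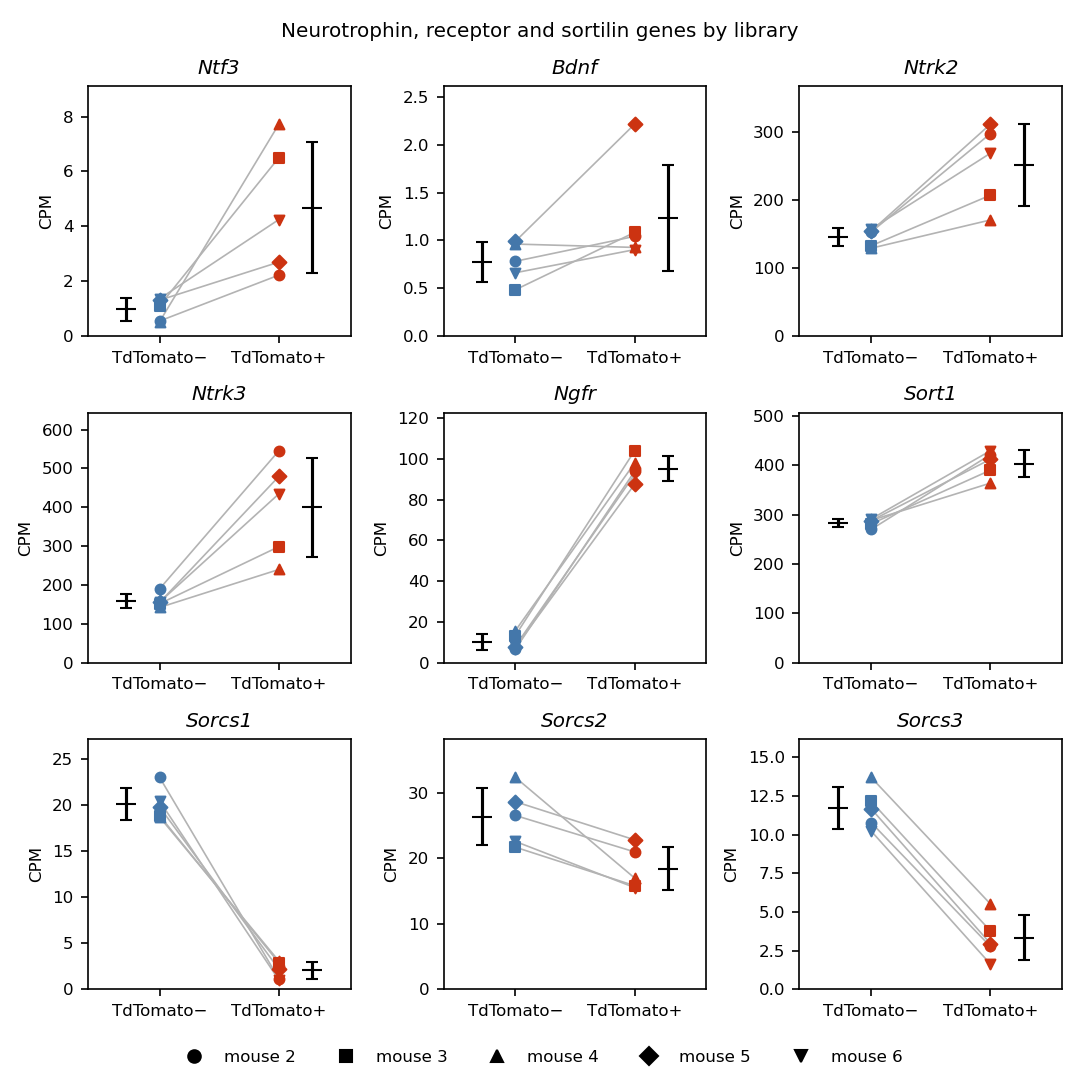
CPM (y axis, from 0) of the 9 genes in each TdTomato- and TdTomato+ library, with lines joining the 2 libraries of a mouse, a marker shape for each mouse, and black bars for the mean and SD of 5 libraries. Ngfr rose from 6.57 to 15.6 CPM up to 87.6 to 104 CPM in every mouse, Sorcs1 fell to 3.05 CPM or less, and the single high Bdnf value is that of mouse 5.

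Of the ligands, Ntf3 encodes neurotrophin 3 and lies on chromosome 6 (GRCm38, 126101412 to 126166910, minus strand). In TdTomato- libraries of mice 2 to 6 it was at 0.547, 1.11, 0.521, 1.31 and 1.36 CPM, and in TdTomato+ libraries at 2.22, 6.51, 7.73, 2.70 and 4.25 CPM. Every TdTomato+ value was above every TdTomato- value, and mice 3 and 4 were the highest of the TdTomato+ libraries. The mean rose from 0.968±0.407 to 4.68±2.39 CPM (SD, n = 5), a fitted difference of 2.19 log2 units (edgeR adjusted p = 2.9e-04, s.e. 0.34), with the same direction in 5 of 5 mice. These values rest on 13 to 39 counts per TdTomato- library and 49 to 175 per TdTomato+ library. Its rise was the most variable among the 6 higher members, from 1.00 on the log2 scale in mouse 5 to 3.70 in mouse 4, and without mouse 4 the log2 fold change was 1.82, under the fold change threshold but still with an adjusted p of 2.0e-04 (edgeR).

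Bdnf encodes brain-derived neurotrophic factor (chromosome 2, 109674700 to 109727007, plus strand) and had the lowest mean CPM of the 9 genes in both populations. It was at 0.782, 0.484, 0.962, 0.991 and 0.662 CPM in TdTomato- libraries of mice 2 to 6 and at 1.04, 1.08, 0.927, 2.22 and 0.904 CPM in TdTomato+ libraries, which is 14 to 25 and 20 to 51 counts. The populations overlapped, and mouse 5 held the only TdTomato+ value that stood well clear of the TdTomato- range. The fitted difference was 0.64 log2 units (edgeR adjusted p = 0.034, s.e. 0.24), with a rise in 4 of 5 mice and a log2 ratio of −0.05 in mouse 4. The call was lost with library totals unscaled by TMM (0.47, adjusted p = 0.10), without mouse 5 (0.47, adjusted p = 0.14), without mouse 3 (0.53, adjusted p = 0.11), without mouse 6 (0.69, adjusted p = 0.051), without the mouse block (0.68, adjusted p = 0.056) and with DESeq2 (0.64, adjusted p = 0.16). The call for Bdnf thus depends on the setting. An antisense gene, Gm45346, covers 14.4% of the exonic length of Bdnf, and whether the counting separated the strands is not given in the sources used here.

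Of the tyrosine kinase receptors, Ntrk3 encodes TrkC (chromosome 7, 78175959 to 78738012, minus strand). Ntrk3 was at 189.8, 151.5, 142.0, 154.8 and 155.6 CPM in TdTomato- libraries of mice 2 to 6. In TdTomato+ libraries it was at 545, 299, 239.8, 479 and 435 CPM. All TdTomato+ values lay above the TdTomato- range, and they parted into mice 2, 5 and 6, which were high, and mice 3 and 4, which were lower. The fitted difference was 1.28 log2 units (edgeR adjusted p = 1.2e-05, s.e. 0.12, 5 of 5 mice), from 158.8±18.2 to 399.6±127 CPM (SD, n = 5).

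Ntrk2, the gene of TrkB (chromosome 13, 58806569 to 59133970, plus strand), showed the same split between mice with a smaller rise. It was at 152.6, 132.5, 128.9, 153.9 and 156.9 CPM in TdTomato- libraries and at 297, 207, 170.5, 311 and 269 CPM in TdTomato+ libraries. Mouse 4 was lowest in both populations, and the populations did not overlap. The fitted difference was 0.76 log2 units (edgeR adjusted p = 2.8e-05, s.e. 0.08, 5 of 5 mice), from 145.0±13.2 to 250.9±60.2 CPM (SD, n = 5). Both Trk genes produce full-length and truncated receptors, which gene counts do not separate, so neither change can be assigned to the kinase-bearing form.

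The spread of the Trk genes between mice was wider in TdTomato+ than in TdTomato- libraries. The highest over the lowest CPM was 2.27 for Ntrk3 and 1.83 for Ntrk2 in TdTomato+ libraries, against 1.34 and 1.22 in TdTomato- libraries. The summed CPM of 4 subplate markers (Nr4a2, Nxph4, Tle4 and Lpar1) was also uneven among TdTomato+ libraries, at 625, 458, 378, 599.7 and 469 for mice 2 to 6, in the order of Ntrk3 (mouse 2 highest, then 5, 6, 3 and 4). The subplate is the transient layer of early-born neurons under the cortical plate. Of its 6 listed markers, Ctgf and Cplx3 were not found by symbol in the count table. Of the 4 found, 3 were higher in TdTomato+ cells (Nr4a2 most, with a log2 fold change of 2.50) and Lpar1 was lower (−3.92). In TdTomato- libraries these 4 summed to 134 to 169 CPM. Tle4, which is also a marker of layer VI neurons, made up most of the sum, with a mean of 332±98.5 CPM in TdTomato+ cells, and its log2 ratio was lowest in mouse 4 (1.13), as for Ntrk3. The log2 ratios of the other markers, which also depend on the TdTomato- library, were lowest in mouse 6 (Nr4a2 1.96, Nxph4 0.49 and Lpar1 −4.21). Summed projection neuron markers in TdTomato+ libraries went nearly the other way. They were lowest in mouse 2 (9645 CPM), then 5, 6, 4 and 3 (10930 CPM). Those of GABAergic neurons were highest in mice 3 and 4 (67.5 and 68.1 CPM). The part of subplate, layer VI or other neurons in the Trk levels was not tested.

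Ngfr, which encodes p75 and is known for its expression by subplate neurons, had the largest rise of the 9 genes. It lies on chromosome 11 (95568818 to 95587735, minus strand). Ngfr was at 6.57, 13.3, 15.6, 7.57 and 8.08 CPM in TdTomato- libraries of mice 2 to 6 and at 94.0, 104.0, 98.0, 87.6 and 92.4 CPM in TdTomato+ libraries. The TdTomato+ values were close together and several-fold above every TdTomato- value. The fitted difference was 3.27 log2 units (edgeR adjusted p = 1.1e-07, s.e. 0.16, 5 of 5 mice), a 9.66-fold difference in fitted level from 10.2±3.99 to 95.2±6.19 CPM (SD, n = 5), and it ranked 83 of 14300 genes from the top by log2 fold change. For comparison, Grem1 itself, whose regulatory sequences drive the Cre, was higher by 3.37 log2 units, with 6.11 CPM left in TdTomato- cells.

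The mice differed in Ngfr mainly in the TdTomato- cells, where mice 3 and 4 were high and the highest value was 2.38 times the lowest, while in TdTomato+ cells it was 1.19 times the lowest. In the same TdTomato- libraries the summed CPM of 6 markers of Cajal-Retzius cells, the Reln-expressing neurons of the marginal zone, was 352 and 401 for mice 3 and 4 and 215 to 278 for mice 2, 5 and 6. All 6 of these markers were lower in TdTomato+ cells (127.5 to 159.8 against 215 to 401 CPM), with mean Reln levels of 136.7±8.48 CPM with the reporter and 246±63.2 CPM without it. The subplate markers summed to 168.8 and 167.8 CPM in mice 3 and 4 and to 134 to 149.9 CPM in the others. Mice 3 and 4 were also highest in summed meninges markers (2.90 and 5.29 against 1.88 to 2.50 CPM). They were lowest in those of microglia (11.0 and 14.8 against 38.7 to 51.3 CPM), mural cells, erythroid cells and GABAergic neurons. The part of any of these cell types in the TdTomato- level of Ngfr was not tested.

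The 250 bases before the RefSeq start of Ngfr are shown because this gene had the largest rise. They are from RefSeq (GRCm38.p6, minus strand), and capitals mark matches, on either strand, to any of the following motifs. The GC box was searched as GGGCGG. The first E-box searched was CAGCTG. The second E-box, CAGATG, was present in 14.5% of all windows. The cAMP response element was searched as TGACGTCA, present in 1.55% of windows, and the TATA box as TATAAA, present in 12.4%. The CCAAT box was searched by those letters. The last motif was GGCGCC, a palindrome known from BMP-responsive elements.
Ngfr, chr11:95587699-95587948: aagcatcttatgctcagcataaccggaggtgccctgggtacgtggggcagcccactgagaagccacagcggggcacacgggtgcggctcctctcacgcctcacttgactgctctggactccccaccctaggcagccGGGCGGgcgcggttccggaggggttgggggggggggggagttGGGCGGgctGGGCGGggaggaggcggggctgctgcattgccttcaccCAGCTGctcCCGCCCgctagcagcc
This window holds 4 GC boxes, a motif present in 32.7% of 32817 promoter windows of this length, and 1 CAGCTG E-box, present in 13.01% of windows. Its GC content is 70.4%, against a median of 52.4% over all windows. The GENCODE start used for the position of Ngfr above lies further upstream, so 37 bases of the window, with the E-box and 1 of the GC boxes, are inside the gene by that annotation. A match describes letters only. Promoter entries were found for 6 of the 9 members.

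**Figure D2:**
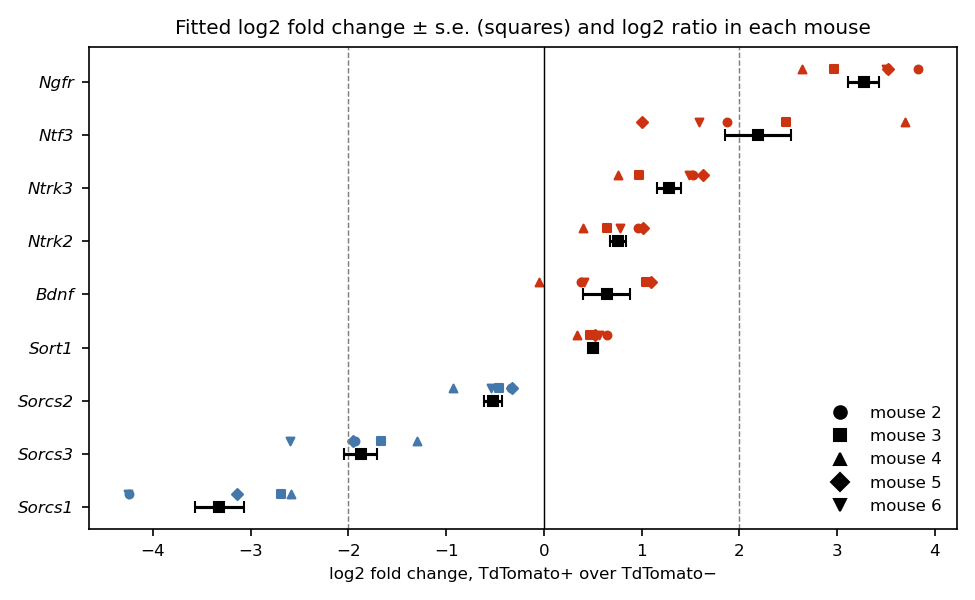
Log2 fold change of TdTomato+ over TdTomato- (x axis) for the 9 genes (y axis), with the fitted value and its s.e. as squares, the log2 ratio of CPM in each mouse as small markers, and dashed lines at −2 and 2. Mouse 4 has the smallest change in 7 of the 9 genes and the largest in Ntf3 and Sorcs2.

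Across the 9 genes, mouse 4 had the smallest log2 ratio in size for 7 (Bdnf, Ntrk2, Ntrk3, Ngfr, Sort1, Sorcs1 and Sorcs3) and the largest for the other two (Ntf3 and Sorcs2). Mouse 5 had the smallest for Ntf3 and Sorcs2. Of the 5 mice, no other mouse had the smallest value for any member.

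Sort1 encodes sortilin, the co-receptor of p75 for neurotrophin precursors (chromosome 3, 108284082 to 108361511, plus strand), and rose little but evenly. It was at 269.8, 281, 288, 287 and 291 CPM in TdTomato- libraries of mice 2 to 6 and at 421, 390, 364, 412 and 429 CPM in TdTomato+ libraries. The populations did not overlap, and its relative spread in TdTomato- cells (highest over lowest CPM of 1.08) was the smallest of the 9 genes there. The fitted difference was 0.51 log2 units (edgeR adjusted p = 1.0e-05, s.e. 0.05, 5 of 5 mice), from 283±8.42 to 403±26.6 CPM (SD, n = 5). An antisense gene covers 4.47% of its exonic length.

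The SorCS genes went the other way. Sorcs1, whose product sorts synaptic membrane proteins such as neurexin, lies on chromosome 19 (50143299 to 50678646, minus strand). It was at 22.99, 18.8, 18.7, 19.8 and 20.4 CPM in TdTomato- libraries of mice 2 to 6. In TdTomato+ libraries it was at 1.13, 2.86, 3.05, 2.17 and 0.994 CPM, which is 22 to 69 counts. The TdTomato- values were close together, and mice 2 and 6 were the lowest of the TdTomato+ libraries. Sorcs1 fell by 3.32 log2 units (edgeR adjusted p = 2.3e-06, s.e. 0.25, 5 of 5 mice), from 20.1±1.74 to 2.04±0.952 CPM (SD, n = 5). An antisense gene overlaps 2.52% of its exonic length.

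Sorcs3, the gene of another neuronal Vps10p-domain receptor, lies near Sorcs1 on the same chromosome (48206025 to 48805505, plus strand), 1.34 Mb away, and 0 other genes of the table lie between them. It was at 10.8, 12.2, 13.7, 11.7 and 10.2 CPM in TdTomato- libraries and at 2.77, 3.77, 5.52, 2.96 and 1.63 CPM in TdTomato+ libraries of mice 2 to 6. Mouse 4 was highest and mouse 6 lowest in both populations, and the populations did not overlap. Sorcs3 fell by 1.87 log2 units (edgeR adjusted p = 7.7e-06, s.e. 0.17, 5 of 5 mice), just short of the fold change threshold, which it passed without mouse 4 (−2.04).

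The 250 bases before the starts of Sorcs1 and Sorcs3 are shown because these neighbors were lower together. The sequences and capitals are as for Ngfr, with Sorcs1 on the minus and Sorcs3 on the plus strand.
Sorcs1, chr19:50678647-50678896: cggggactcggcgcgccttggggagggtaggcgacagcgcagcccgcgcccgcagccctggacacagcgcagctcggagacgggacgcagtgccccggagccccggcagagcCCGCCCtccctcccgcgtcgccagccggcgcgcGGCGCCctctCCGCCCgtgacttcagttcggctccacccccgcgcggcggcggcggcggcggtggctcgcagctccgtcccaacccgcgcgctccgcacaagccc
Sorcs3, chr19:48205775-48206024: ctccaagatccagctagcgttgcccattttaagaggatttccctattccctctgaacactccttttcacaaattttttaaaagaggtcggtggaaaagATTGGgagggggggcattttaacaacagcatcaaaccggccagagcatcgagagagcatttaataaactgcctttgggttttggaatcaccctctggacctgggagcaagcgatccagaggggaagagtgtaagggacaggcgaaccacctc
The windows differ in composition. That of Sorcs1 has a GC content of 79.6%, with 2 GC boxes and 1 GGCGCC, found in 9.59% of all windows. That of Sorcs3 has a GC content of 48.4%, with 1 CCAAT box, found in 33.8% of windows, and no match to the other motifs searched.

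Sorcs2 encodes a receptor that binds neurotrophin precursors with p75 (chromosome 5, 36017180 to 36398139, minus strand) and had the smallest fall. It was at 26.5, 21.7, 32.3, 28.6 and 22.5 CPM in TdTomato- libraries of mice 2 to 6 and at 20.9, 15.8, 16.95, 22.8 and 15.5 CPM in TdTomato+ libraries. The populations overlapped across mice, although the TdTomato+ value was lower within each of the 5 mice. Sorcs2 fell by 0.52 log2 units (edgeR adjusted p = 6.0e-04, s.e. 0.09), from 26.3±4.39 to 18.4±3.28 CPM (SD, n = 5).

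Levels were compared between genes as CPM per kb of exon, over the union of all annotated exons, and the order given holds for that length only. In TdTomato- cells it was Sort1 (37.4±1.11), Ntrk2 (7.52±0.683), Ntrk3 (5.26±0.603), Sorcs2 (2.99±0.499), Ngfr (2.97±1.16), Sorcs1 (2.39±0.206), Sorcs3 (1.64±0.188), Ntf3 (0.565±0.238) and Bdnf (0.12±0.034) CPM per kb. On this scale only Sorcs2, Ngfr and Sorcs1 overlapped with their neighbors in the order over the 5 libraries. In TdTomato+ cells the level of Ngfr, at 27.6±1.80 CPM per kb, was second to that of Sort1 (53.3±3.51), ahead of Ntrk3 (13.2±4.21) and Ntrk2 (13.004±3.12), which overlapped with each other. Ntf3 (2.73±1.39) and Sorcs2 (2.09±0.373) overlapped, and the lowest were Sorcs3 (0.467±0.203), Sorcs1 (0.242±0.113) and Bdnf (0.199±0.089), each of which overlapped with the next. The exons of Ntrk2 and Ntrk3 add up to 19.3 and 30.2 kb because alternative ends of the transcripts are included, against 3.45 kb for Ngfr, so the levels of the Trk genes per kb are low estimates and their order against each other, Ngfr and Sort1 depends on the length used. Per kb of the longest single transcript, Ngfr (27.6±1.80), Ntrk2 (28.7±6.89) and Ntrk3 (20.3±6.45) overlapped in TdTomato+ cells, and in CPM without division by length Ntrk3 and Ntrk2 were above Ngfr in every library. In CPM, Ntrk3 had a higher TdTomato- mean than Ntrk2 (158.8 against 145.0 CPM) and overlapped with Sort1 in TdTomato+ cells. Per kb of the median transcript length, Sort1 was below both Trk genes in the mean, at 41.7 in TdTomato- cells against 50.3 for Ntrk2 and 160.3 for Ntrk3, and at 59.3 in TdTomato+ cells against 87.0 and 403 CPM per kb.

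**Figure D3:**
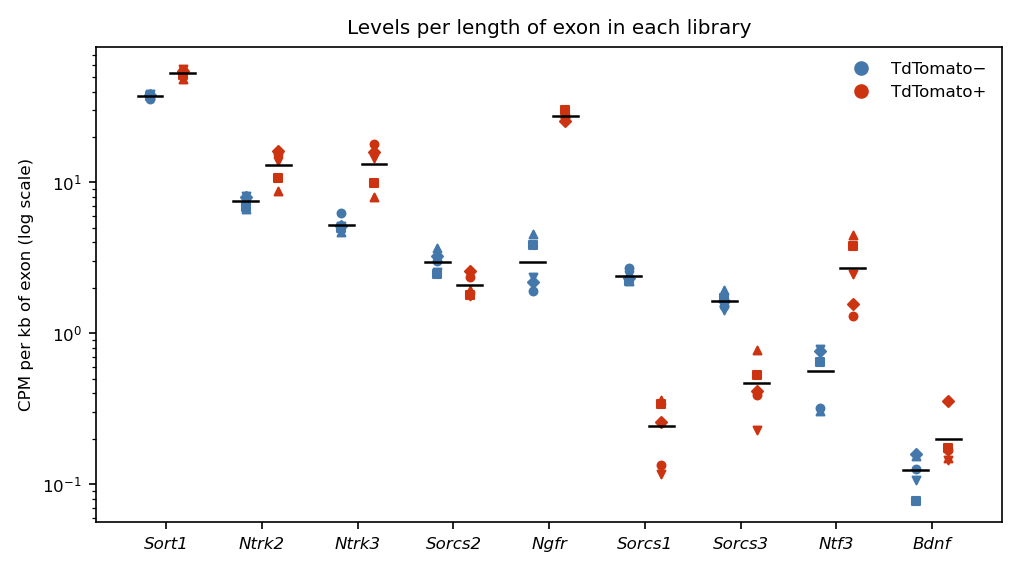
CPM per kb of exon (y axis, log scale) of the 9 genes in each TdTomato- (blue) and TdTomato+ (red) library, ordered by the TdTomato- mean, with black lines for means of 5 libraries. Ngfr moves from a TdTomato- mean of 2.97 to a TdTomato+ mean of 27.6 CPM per kb, and the SorCS genes move down.

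On the scale of all exons Ngfr held a larger share of the receptor transcripts in every TdTomato+ library than in any TdTomato- library. Among Ntrk2, Ntrk3 and Ngfr, the share of Ngfr in the summed CPM per kb was 18.8±7.22% in TdTomato- cells (11.8 to 28.5%) and 52.0±8.60% in TdTomato+ cells (44.3 to 62.9%, SD, n = 5). The size of this share depends on the lengths. It was 10.9±4.62% and 37.0±7.99% with the longest transcript of each gene and 3.34±1.54% and 13.6±4.31% in CPM. With the median transcript length it was 1.43±0.666% and 5.81±2.12%, a scale on which the short median Ntrk3 transcript (0.99 kb) raises the Trk share. The populations did not overlap on any of these scales. Per kb of all exons, the share of Ntrk2 was 47.8±4.74% and 23.9±3.48%, and that of Ntrk3 was 33.4±3.51% and 24.1±5.31%. The Ntrk2 share was lower in TdTomato+ cells with every length tried, without overlap. The direction for Ntrk3 depended on the length, since its share went from 29.1% to 25.9% with the longest transcript but from 74.97% to 77.2% with the median length and from 50.5% to 52.7% in CPM. Among the sortilin genes, per kb of all exons, Sort1 already held 84.2±1.24% in TdTomato- cells and held 95.0±0.924% in TdTomato+ cells, where Sorcs1 had a share of 0.442±0.228%, Sorcs3 of 0.852±0.425% and Sorcs2 of 3.72±0.591%. With the median length Sort1 held 65.7±2.52% and 84.9±2.25%, and the TdTomato+ shares were 0.745% for Sorcs1, 1.74% for Sorcs3 and 12.6% for Sorcs2. The Sort1 share was higher and the SorCS shares lower in the TdTomato+ mean with every length tried.

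Ratios of related genes within a library do not depend on how libraries are scaled. The log2 ratio of Ntrk2 to Ntrk3 counts was −0.13±0.14 in TdTomato- and −0.64±0.15 in TdTomato+ libraries, a difference of −0.51 (−0.71 to −0.34 in the 5 mice), so that Ntrk3 rose more than Ntrk2 in each mouse. For Sorcs1 over Sorcs3 the log2 ratio was 0.78±0.26 and −0.73±0.35, a difference of −1.51 (−2.36 to −1.03), and Sorcs1 fell more than Sorcs3 in each mouse. Sort1 over Sorcs2 changed from 3.44±0.24 to 4.47±0.24, a difference of 1.03 (0.85 to 1.27). For these 3 ratios the exact two-sided sign-flip test over 5 mice gave p = 0.0625, the smallest it can give (0.083 after Benjamini-Hochberg adjustment over 4 ratios), so the design could not reach 0.05 by this test. Bdnf over Ntf3 went from −0.24±0.90 to −1.83±1.13, a difference of −1.59 with 4 of 5 mice in that direction (exact p = 0.12, also after adjustment), and of −1.01 without mouse 4.

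**Figure D4:**
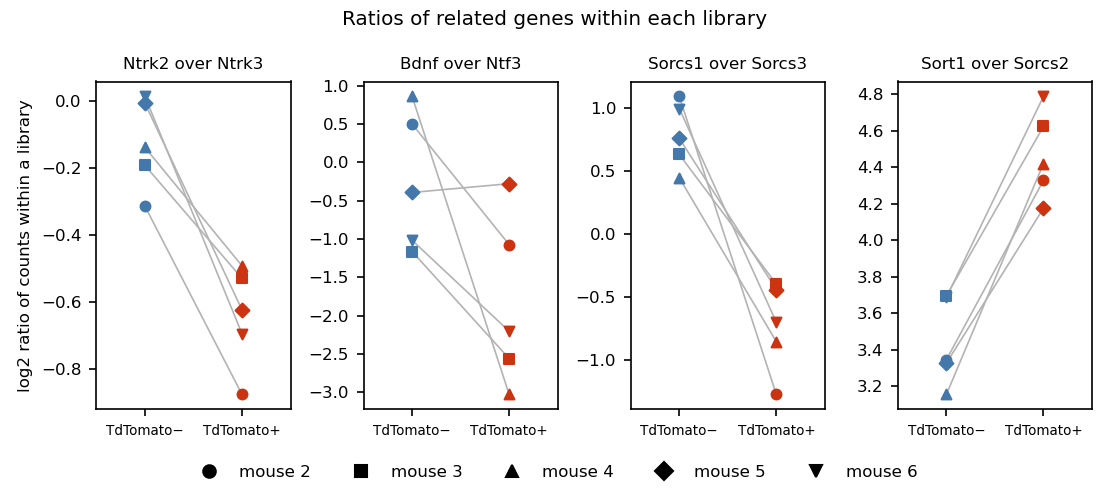
Log2 ratio of counts within a library (y axis) for 4 pairs of related genes in TdTomato- and TdTomato+ libraries, with lines joining the 2 libraries of a mouse. Ntrk2 over Ntrk3 and Sorcs1 over Sorcs3 go down and Sort1 over Sorcs2 goes up in all 5 mice, while Bdnf over Ntf3 goes up slightly in mouse 5.

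For the members below, the gene with the nearest set of 5 within-mouse log2 ratios was found among 9776 genes with a mean log2 CPM of at least 3. For Ngfr this was Adcy1, an adenylyl cyclase gene (root mean square difference of 0.14 over 5 mice), and for Sorcs1 it was Dlk1, a gene of the Notch ligand family (0.11), the only gene within 0.2 of Sorcs1. Of Ngfr, 4 genes lay within 0.2. Ntrk3 was nearest to Paqr9 (0.088), with 17 genes within 0.2. Sort1 was nearest to Epn2, which encodes an endocytic adaptor (0.030), and Sorcs2 to Pdxk, which encodes pyridoxal kinase (0.047), but 882 and 142 genes lay within 0.2 of these members. For Sorcs3 the nearest was Pam, which encodes a peptide-amidating enzyme (0.27), for Bdnf it was C330018D20Rik (0.26) and for Ntf3 it was Trim9, which encodes a neuronal ubiquitin ligase (0.57). No gene was within 0.2 of any of these last 3.

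The other genes of the pathway were mixed in direction. Of 89 genes in 7 lists, 85 were tested, 37 were higher, 31 were lower and 17 were not called, with a median log2 fold change of 0.06, against −0.01 for all genes tested. Scaled by library totals alone, which moves the median of all genes to −0.18, 26 were higher and 44 were lower. These counts stand beside 77.3% called among all genes.

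Among 15 co-receptors and regulators of Trk and p75, 5 were higher and 9 lower, with a median of −0.27 on the log2 scale. The largest rise was that of Lingo1, which encodes a partner of p75 in the Nogo receptor complex (2.42, s.e. 0.08, adjusted p = 8.4e-09, edgeR), from 49.0±4.41 to 266±48.1 CPM. The largest fall was that of Lrig1, which encodes an inhibitor of receptor tyrosine kinases (−2.19, s.e. 0.12, adjusted p = 3.1e-07), from 29.7±1.79 to 6.60±1.71 CPM. Among 17 adaptors and enzymes that bind Trk, 8 were higher and 6 lower (median 0.10), with Gab2 at 1.35 and Shc1 at −0.97, and among 20 genes of the kinase cascades downstream 10 were higher and 4 lower (median 0.14), with the phosphoinositide 3-kinase gene Pik3cb at 1.73 and Map2k1 at −0.57.

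Genes of neurotrophin processing and transport split, with 6 higher and 5 lower of 13 (median 0.06). Pcsk5, which encodes a proprotein convertase, rose most (2.46, s.e. 0.13, adjusted p = 2.2e-07, edgeR, from 5.77±0.828 to 32.9±11.7 CPM), and Cadps2, which encodes a protein of dense-core vesicle release, fell most (−3.27, s.e. 0.14, adjusted p = 6.2e-08, from 8.38±0.876 to 0.868±0.21 CPM). The list on sorting of sortilin-family receptors held 14 genes, including the protease genes Adam10 and Adam17. Of these 14, 6 were higher and 4 lower within a narrow range, from −0.76 for Adam17 to 0.56 for Gga2. The next lowest was Snx1 at −0.44. Of 5 other sortilin ligands, 2 were higher and 2 lower, with the lipoprotein lipase gene Lpl at 3.38 and Apoe at −2.68. Sorl1, the fifth gene of the sortilin family, fell by 0.84 log2 units (edgeR adjusted p = 1.1e-05, s.e. 0.08), down from 168±17.2 to 93.8±11.2 CPM. Ntf5 and Plg were not analysed here.

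**Figure D5:**
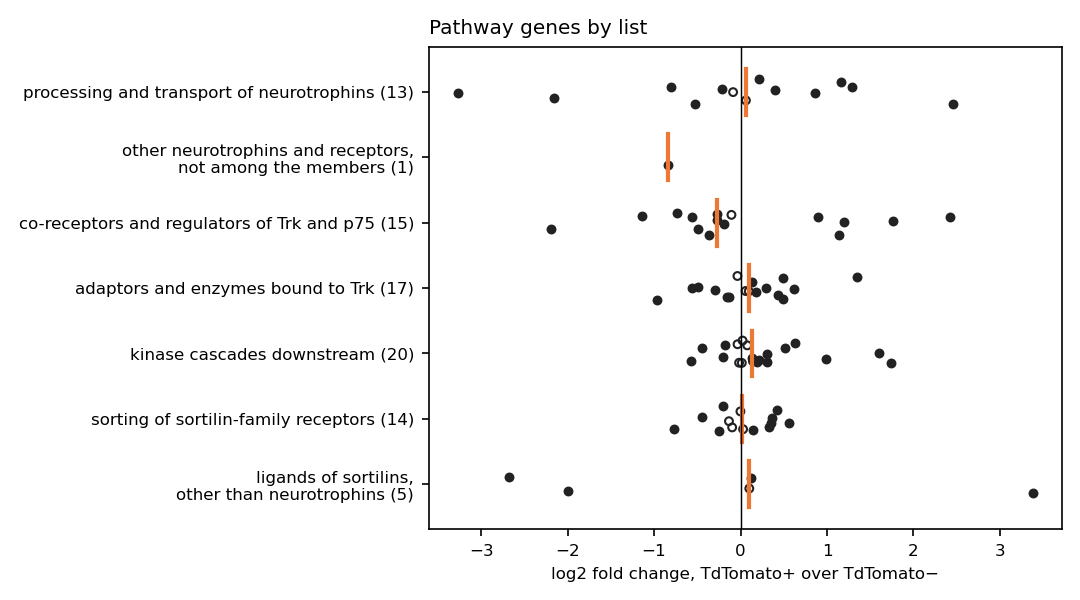
Log2 fold change of TdTomato+ over TdTomato- (x axis) for the 85 tested pathway genes in 7 lists (y axis, number tested in brackets), with filled points where the adjusted p was at most 0.05, open points for the others and orange bars for medians. The lists spread to both sides of 0, and the sorting list runs only from −0.76 (the protease gene Adam17) to 0.56.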

How the data were processed

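The authors trimmed reads (Phred score under 28, adaptors), aligned them to GRCm38 with STAR 2.4.2a (at most 1 mismatch, unique hits) and deposited raw counts per gene. The release of the annotation and the strand column are not given in the sources used here, and the labels and methods differ in library kit and read length. The test was the quasi-likelihood F-test of edgeR 4.0.16 (R 4.3.3) with the mouse as a block, as the study paired its populations, after filterByExpr (which removed no gene) and TMM, with Benjamini-Hochberg adjustment over 14300 genes, after checks on simulated counts. Thresholds were an adjusted p of 0.05 and, for size, an absolute log2 fold change of 2. CPM used TMM-scaled totals, and the s.e. is the fold change over the square root of F. Same-numbered libraries deviated together (correlations of 0.186 to 0.316 for 5 of 5 mice). Between different numbers the correlations ran from −0.312 to 0.212, and the highest, between mice 3 and 4, exceeded that of mouse 5 (0.186). Symbols and exons came from GENCODE M21 (14271 of 14300 identifiers matched). Named genes were every member, the largest rise and fall in each pathway list, and the nearest gene of each called member. The nearest gene of Ntrk2 is not reported here. The members and lists were chosen with earlier results of these data known. Alternatives were DESeq2 1.42.0, other scalings, filters, prior counts, TREAT, no block, and each mouse left out. Library pairs within a population differed by more than sampling noise (chi-square per degree of freedom 4.46 to 32.0). Lengths of the longest and the median transcript were alternatives added after seeing the data.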

Additional observations from a re-analysis of the deposited data

Results flagged for a closer look

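Of 18 groups of 5 libraries examined (9 genes in each population), 1 held a library far from the rest. Bdnf in the TdTomato+ library of mouse 5 was at 1.201 log2 CPM, with the next library at 0.22 and the lowest at −0.02, a gap of 0.802 of the whole range (critical value 0.71). About 1 in 20 groups is set apart by chance, or 0.9 of 18.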

How the results depend on the processing

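Of 117 single-gene values over 13 alternatives, none changed direction, 107 stayed on the same side of 0.05 and 10 lost the call, 7 of them for Bdnf, whose log2 fold change ran from 0.47 to 0.82 over all alternatives (adjusted p of 0.016 to 0.16 outside TREAT), and 1 each for Ntrk2, Sort1 and Sorcs2 under TREAT. TREAT, which tests against a log2 fold change of 1, called 3 members as higher (Ntf3, Ntrk3 and Ngfr) and 2 as lower, 10 pathway genes as higher and 5 as lower, and 1229 and 1964 of all genes, since it asks for a larger change. Library totals without TMM put 2 members past the lower fold change threshold (Sorcs3 at −2.05) and called 4110 genes as higher and 7123 as lower. Leaving out each mouse, the members past both thresholds were 1 to 2 among the higher and 1 to 2 among the lower, the change coming without mouse 4. The pairing by mouse was part of the design, and without the replicate block 5 members were higher and 3 lower, 37 and 31 pathway genes, and 5224 and 5450 of all genes. Bdnf was the only member whose call was lost without it. The within-library ratios kept their direction with no offset and without each mouse. The share of Ngfr among the receptor genes, per kb of all exons, moved with the length used, an alternative chosen after seeing the data. In TdTomato- and TdTomato+ cells it was 10.9% and 37.0% with the longest transcript and 3.34% and 13.6% with no length. With the median length, which is 0.99 kb for Ntrk3, it was 1.43% and 5.81%. Bdnf rests on 14 to 51 counts per library, and Ntf3, with 13 to 175, kept its call under all 13 alternatives.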
